A study of Mus musculus with 42 samples.

Results

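The α and β chains of the T cell receptor each begin with a variable segment, taken from the Trav genes for the α chain and the Trbv genes for the β chain. All genes whose symbol begins with Trav or Trbv were taken, which gave 128 Trav and 35 Trbv genes, 163 of the 47719 genes measured. Spleens of Psmb8 G201V/G201V mice (homozygous) and of Psmb8 +/+ mice (wild type) had been divided into T cells, non-BT cells and B cells. Each of these 3 fractions was sequenced from 3 old homozygous, 3 old wild-type, 4 young homozygous and 4 young wild-type animals, 42 libraries in all and none from treated animals. Psmb8 encodes a catalytic subunit of the immunoproteasome, which cuts proteins into peptides for MHC class I. The labels give age only as Old or Young, and give neither strain, sex nor the method of cell separation. The young wild-type libraries numbered 4 carry Psmb9 +/+ in the genotype field and wild type in the title. Nothing says that replicates were raised apart, so p-values measure the spread between these samples.

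A developing T cell joins 1 variable segment to short joining (and, for the β chain, diversity) segments by recombination, and the joined exon is spliced to the constant gene Trac, Trbc1 or Trbc2. Each T cell clone thus transcribes mainly the segments it has joined, and the share of a segment among all Trav or Trbv transcripts reads how often it is used in a population. In bulk RNA more cells that use a segment and more RNA per such cell cannot be told apart. Thymic selection on MHC molecules shapes this usage, and some segments are used to different degrees by CD4 and CD8 T cells. Certain lineages use fixed segments: invariant natural killer T cells pair Trav11 chains mostly with Trbv13, and MAIT cells use Trav1.

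The Trbv genes lie on chromosome 6 and the Trav genes on chromosome 14 of GRCm38. Segment sequences were taken from GENCODE M21 transcripts. The last 60 bases are printed 5′ to 3′ for segments on which the results below turn, with the codon of the conserved cysteine, where the hypervariable CDR3 loop begins, in capitals. What follows those bases in a real receptor is added by recombination and differs from cell to cell. Trbv12-1 (chr6:41114008-41114067, plus strand), Trbv12-2 (chr6:41119305-41119364, plus strand) and Trbv30 (chr6:41281931-41281990, plus strand) are shown for the difference between young genotypes, Trbv15 (chr6:41141599-41141658, plus strand) for that between ages, and Trbv13-2 (chr6:41121773-41121832, plus strand) as the segment with the highest share of FPKM.
Trbv12-1: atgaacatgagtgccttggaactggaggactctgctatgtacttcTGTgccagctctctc
Trbv12-2: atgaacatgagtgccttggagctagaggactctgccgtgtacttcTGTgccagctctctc
Trbv30: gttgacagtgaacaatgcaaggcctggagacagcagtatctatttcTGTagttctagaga
Trbv15: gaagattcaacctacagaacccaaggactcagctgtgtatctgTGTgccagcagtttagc
Trbv13-2: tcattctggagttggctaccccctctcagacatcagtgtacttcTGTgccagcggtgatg
Trbv12-1 and Trbv12-2 differ at 4 of these 60 bases and are 88.9% identical over their last 280.

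Trav13-2 (chr14:53635340-53635399, plus strand) and Trav8d-2 (chr14:53042832-53042891, plus strand) are shown because each was high in a single library. Trav11 (chr14:53519800-53519859, plus strand) and the annotated pseudogene Trav11n (chr14:53135619-53135678, plus strand) are shown because their printed ends are the same, with 0 differences over 60 bases. Trav11n has no annotated reading frame and carries no capitals.
Trav13-2: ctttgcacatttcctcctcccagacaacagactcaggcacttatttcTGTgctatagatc
Trav8d-2: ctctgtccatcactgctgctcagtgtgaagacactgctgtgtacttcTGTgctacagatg
Trav11: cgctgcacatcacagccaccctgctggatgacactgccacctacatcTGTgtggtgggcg
Trav11n: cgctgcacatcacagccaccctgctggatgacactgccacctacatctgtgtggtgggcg

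The deposited values are FPKM, fragments scaled to transcript length and to the size of the library, so a level is per length and relative to all other transcripts. T cell libraries held an estimated 14840000 to 25300000 fragments. The T cell markers Cd3d, Cd3e, Cd3g, Cd4, Cd8a, Cd8b1, Cd5, Lck, Thy1 and Cd28 summed to 3038 to 3913 FPKM over the 14 T cell libraries, and no marker stayed under 1 FPKM throughout a group. Immunoglobulin transcripts were also present in the T cell libraries. They took 11.8% to 41.9% of summed FPKM in old homozygous, 11.6% to 44.6% in old wild-type, 1.11% to 2.38% in young homozygous and 4.77% to 10.2% in young wild-type T cells. The highest values of 41.9% and 44.6% belonged to the old animals numbered 2 of each genotype, whose summed FPKM of 1065000 and 1096000 exceeded the 631600 to 755200 of the other 12 T cell libraries.

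Variable segments stood far higher in the T cell fraction than in the others. Summed Trbv reached 1650 to 2669 FPKM in T cells, 11.3 to 440.2 FPKM in non-BT cells and 3.85 to 28.02 FPKM in B cells. Summed Trav reached 870.5 to 1175 FPKM, 4.90 to 236.7 FPKM and 2.33 to 10.5 FPKM in the same order. Among T cells, summed Trbv averaged 1881 ± 219 FPKM in old homozygous (SD, n = 3), 2025 ± 168 in old wild-type (n = 3), 2236 ± 273 in young homozygous (n = 4) and 2333 ± 249.7 in young wild-type libraries (n = 4). Summed Trav averaged 966.9 ± 95.5, 1002 ± 156, 1056 ± 65.0 and 1089 ± 57.2 FPKM in these groups. The ranges of homozygous and wild-type libraries overlapped at both ages for both sums. Trac, the α constant gene (chr14:54220521-54224206), stood at 1455 ± 222 FPKM in old homozygous and 1576 ± 169 in old wild-type T cells, and at 1457 ± 146 in young homozygous and 1575 ± 74.0 in young wild-type T cells. For the β chain, Trbc2 (chr6:41546730-41548352) stood above Trbc1 (chr6:41538218-41539881) in every T cell library, at 1342 to 2452 against 587.3 to 929 FPKM.

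**Figure D1:**
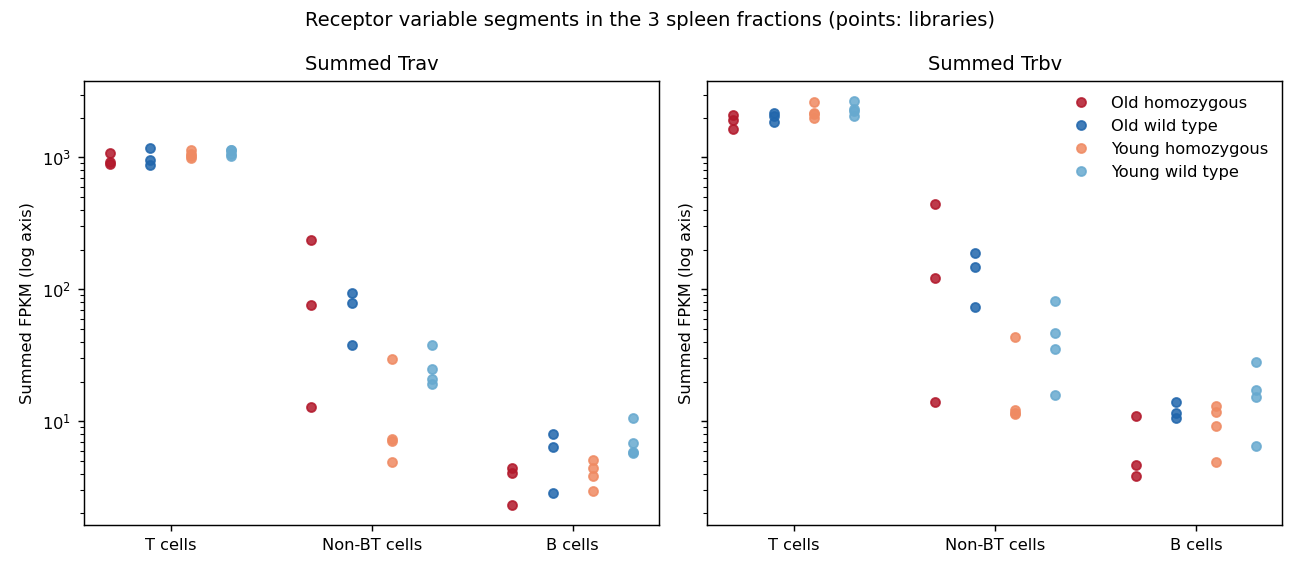
Summed FPKM of the Trav genes (left) and Trbv genes (right) per library on a log axis, by fraction and group. T cell libraries lie between 870.5 and 1175 FPKM for Trav and between 1650 and 2669 FPKM for Trbv, above every non-BT and B cell library.

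Of the 22 Trbv genes annotated as functional, all 22 were above 0 in T cells and all 22 reached 1 FPKM in at least 3 of the 14 T cell libraries, the filter used for testing. Of 13 Trbv pseudogenes 7 were at 0 in every T cell library and 2 passed the filter. Trbv24, one of these 2, is annotated as a pseudogene and stood at 9.82 FPKM on average, 0.455% of Trbv. Of 108 functional Trav genes 94 were above 0 and 64 passed, and of 20 Trav pseudogenes 8 were above 0 and 6 passed. Trav8-2 had the highest level of these pseudogenes at 7.39 FPKM. In all, 94 of 163 segments passed in T cells, and 33 were at 0 in all 14 libraries.

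The Trav locus holds copies of its central block, marked in the gene names by the letters d and n. Near-identical copies share sequence, and how the authors' counting divided reads that map to several genes is not stated. Of the 128 Trav genes, 39 had no stretch of 50 bases that was absent from all other Trav and Trbv genes. Of these 39 genes, 17 were at 0 in every T cell library and 1 passed the filter, Trav3d-3, at 5.32 FPKM on average. The next highest of the 39 was Trav14d-2 at 0.321 FPKM. Of the 73 Trav genes with at least 20% of their stretches unique, 63 passed. The lowest share of unique stretches among Trbv genes was 98.8%, so Trbv genes share few such stretches with other Trav or Trbv genes. Genes outside these families were not searched. Segments without letter held 74.5% ± 2.33 of Trav FPKM in old homozygous, 76.6% ± 0.951 in old wild-type, 75.7% ± 1.06 in young homozygous and 74.95% ± 0.969 in young wild-type T cells. Values for d and n copies are uncertain in how they divide within a family.

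**Figure D2:**
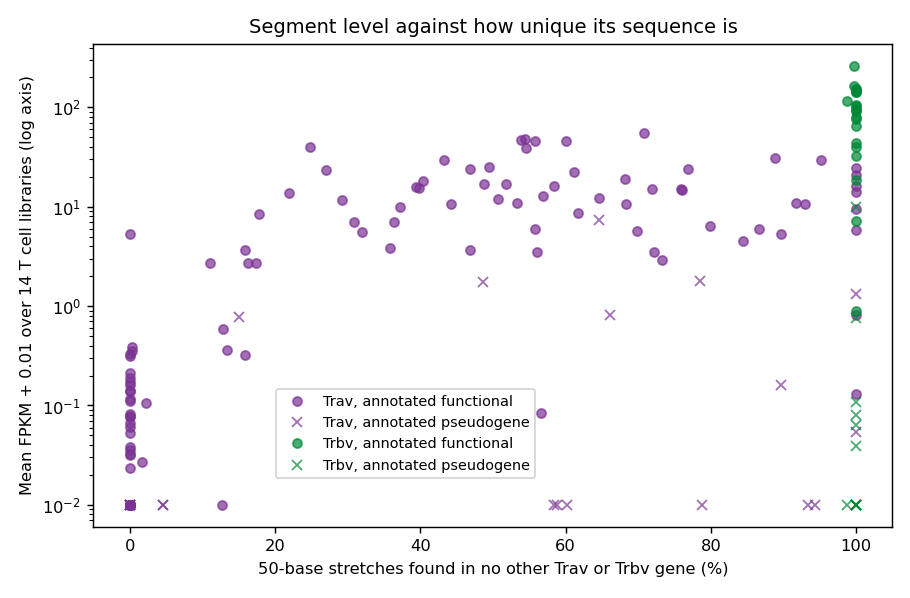
Mean FPKM + 0.01 over 14 T cell libraries (log axis) against the share of a gene's 50-base stretches found in no other Trav or Trbv gene, for 163 segments. The 39 Trav genes at 0% average 0.321 FPKM or less except Trav3d-3 at 5.32 FPKM, and all Trbv genes lie at 98.8% or above.

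Trav11, the α segment of invariant natural killer T cells, was at 0 FPKM in all 14 T cell libraries. Its copy Trav11d was above 0 in 5 of 14 libraries and reached 1.15 FPKM in old wild-type replicate 2, or 3 fragments. Trav11n averaged 1.76 FPKM, and 78.6% of its stretches were unique. No level of these cells was drawn from the 3 genes. Their transcription factor gene Zbtb16 (PLZF) stood at 0.0604 to 0.761 FPKM in T cells.

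By share of FPKM, which is per length, Trbv usage had the same leading segment in every T cell library. Trbv13-2, once named Vβ8.2, held 12.2% of Trbv FPKM on average and between 9.61% and 16.5% by library. In old homozygous T cells its share was 12.3% ± 2.63 and in old wild-type T cells 13.4% ± 3.16 (n = 3 each). Its share was 11.1% ± 1.10 in young homozygous and 12.5% ± 0.875 in young wild-type T cells (n = 4 each). The Trbv13 family of Trbv13-1, Trbv13-2 and Trbv13-3 together held 27.4% ± 2.18, 26.8% ± 2.40, 25.0% ± 0.814 and 27.0% ± 1.51 in the same 4 groups. After Trbv13-2 came Trbv13-3 at 7.58%, Trbv16 at 7.14%, Trbv5 at 7.12%, Trbv1 at 6.82%, Trbv13-1 at 6.65%, Trbv3 at 6.56% and Trbv12-2 at 5.39%. This order depends on the correction for length. By estimated fragments, which favour longer transcripts, Trbv13-2 led in 7 of 14 libraries, Trbv3 in 6 and Trbv19 in 1. From Trbv13-3 to Trbv12-2 the ranges of neighbours in this order overlapped over the 14 libraries. Trbv31, which lies in inverted orientation beyond the constant genes, held 4.94% on average, with 5.36% ± 1.38 in old homozygous, 3.9% ± 0.642 in old wild-type, 5.63% ± 0.248 in young homozygous and 4.72% ± 0.644 in young wild-type T cells. Low in the order stood Trbv30 at 0.329% and Trbv21 at 0.0425%. Usage fell with position along the locus in rank terms: over the 21 functional Trbv genes on the plus strand, the mean share and the start coordinate had a Spearman's rho of -0.58. This is a description across segments that share the same libraries, with no test.

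**Figure D3:**
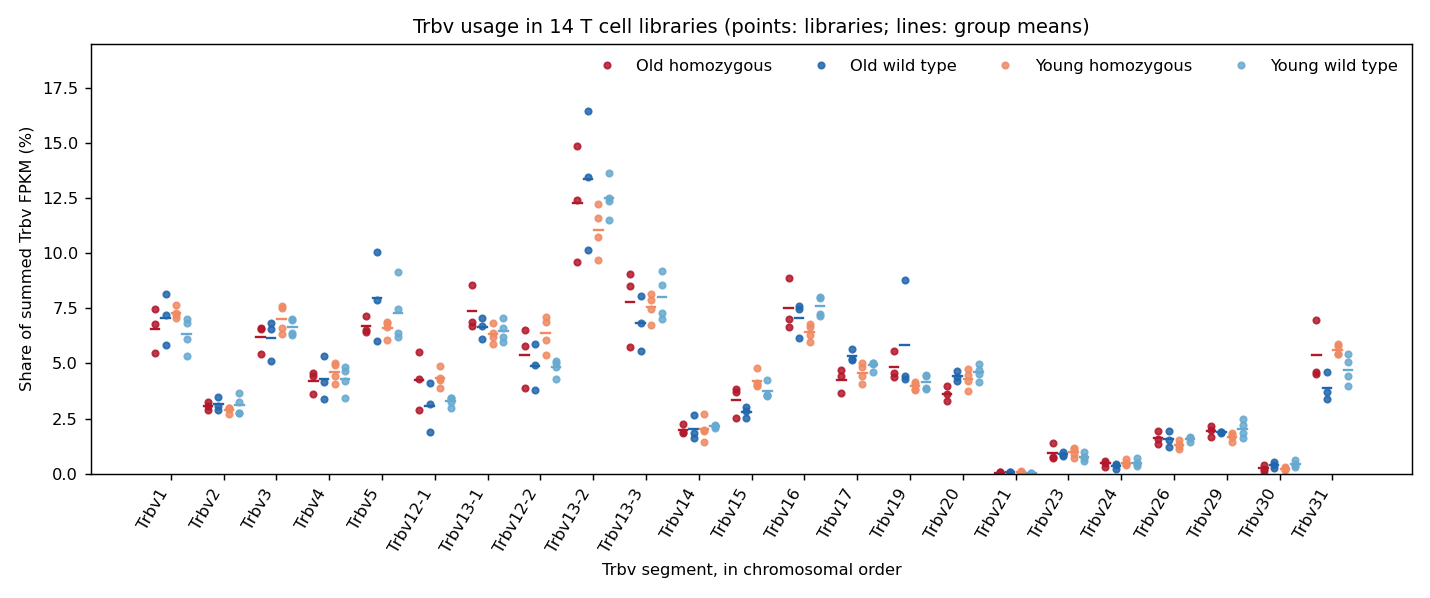
Share of summed Trbv FPKM (%) for 22 functional Trbv genes and Trbv24, in chromosomal order, with a point per T cell library and a line at each group mean. Trbv13-2 is the highest segment by FPKM, at 9.61% to 16.5%, and the mean shares of Trbv21, Trbv23, Trbv24 and Trbv30 lie below 1%.

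Trav usage was spread over more segments. Trav12-2 had the highest mean share at 5.37%, followed by Trav14-2 at 4.67%, Trav14n-3 at 4.54%, Trav3-3 at 4.51%, Trav5-4 at 4.38%, Trav7-4 at 3.88%, Trav13-1 at 3.74% and Trav7-5 at 2.97%. No single Trav gene led in every library: 8 different segments had the top share in at least 1 of the 14 libraries. The effective number of segments, the inverse of the sum of squared shares, was 37.0 ± 1.18 for Trav in old homozygous, 35.3 ± 3.70 in old wild-type, 37.1 ± 0.700 in young homozygous and 39.6 ± 2.69 in young wild-type T cells. For Trbv it was 15.6 ± 1.27, 15.1 ± 1.68, 16.3 ± 0.390 and 15.7 ± 0.133. The spread between replicates depended in part on the old animals numbered 2. The median coefficient of variation of the 39 Trav segments with at least 1% mean share was 23.3% in old homozygous, 24.5% in old wild-type, 18.9% in young homozygous and 17.5% in young wild-type T cells. For the 19 such Trbv segments it was 13.9%, 16.6%, 9.13% and 7.70%. Without the animals numbered 2 the Trav value was 15.5% in old homozygous and 13.9% in old wild-type T cells, below both young groups. The Trbv value was then 5.91% in old homozygous T cells, below both young groups, and 11.7% in old wild-type T cells, above both. Each old group then holds 2 libraries, and the difference in spread was not tested. The effective numbers of these 2 libraries were 38.1 and 37.1 for Trav in old homozygous and 33.0 and 39.6 in old wild-type T cells. For Trbv they were 16.8 and 15.7 in old homozygous and 16.7 and 15.2 in old wild-type T cells.

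The first comparison was between homozygous and wild-type T cells of young animals. No segment passed in the limma fit over all genes. Of 94 tested segments 0 passed at an adjusted p under 0.05, as did 0% of all 13193 genes, and 4 segments (4.26%) had an unadjusted p under 0.05 where 8.67% of all genes did. The median log2 fold change was -0.11 over 70 Trav and -0.13 over 24 Trbv segments, against 0.00 over all genes. As shares of Trbv FPKM, 5 of 24 tested segments (20.8%) had no overlap between the genotypes, where 6.85% of all genes had none after the same scaling. These were Trbv12-1, Trbv12-2 and Trbv1, which were higher in homozygous T cells, and Trbv16 and Trbv30, which were lower. Of 70 Trav segments 0 were without overlap as shares, where 6.59% of all genes were. The 8 leading Trav segments overlapped between young genotypes, with unadjusted exact permutation p of 0.0571 to 0.943. Nearest to the threshold were Trav14-2, at 5.40% ± 0.367 in young homozygous and 4.48% ± 0.543 in young wild-type T cells, and Trav14n-3, at 5.05% ± 0.452 and 4.26% ± 0.393 (n = 4 each, exact p of 0.0571 for both). Trbv31 also overlapped in young T cells (exact permutation p of 0.0571) and in old T cells (exact permutation p of 0.2).

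Trbv12-1 and Trbv12-2, once named Vβ5.2 and Vβ5.1, lie among the Trbv13 genes. In young homozygous T cells Trbv12-2 held 6.06%, 6.89%, 7.12% and 5.38% of Trbv FPKM, against 5.12%, 4.84%, 4.29% and 5.03% in young wild-type T cells. All 4 homozygous libraries lay above all 4 wild-type libraries. The mean was 6.36% ± 0.799 in homozygous and 4.82% ± 0.371 in wild-type libraries (n = 4 each), a difference of 1.54 percentage points. A two-sided exact permutation test gave an unadjusted p of 0.0286, the smallest that 4 against 4 libraries allow. It was 1 of 3 such values among 23 named segments tested in young T cells, with Trbv1 and Trbv16. On the deposited scale Trbv12-2 had 121, 147, 156 and 141 FPKM in young homozygous libraries, against 117 FPKM at most and a mean of 112 ± 8.01 FPKM in young wild-type libraries. It was the only tested segment without overlap on that scale (1.06% of 94 segments, where 6.52% of all genes had none). Its log2 fold change on the log2(FPKM + 1) scale was 0.33 ± 0.16 (SE), with a limma adjusted p of 0.588.

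Trbv12-1 held 3.90%, 4.26%, 4.90% and 4.32% in young homozygous T cells, against 3.43%, 2.99%, 3.42% and 3.25% in young wild-type T cells. Again the genotypes did not overlap. Its log2 fold change was 0.34 ± 0.24, with a limma adjusted p of 0.730. Trbv12-1 was not among the segments named by the rule and was chosen after its values were seen, as was Trbv30. The pair together held 10.7% ± 1.08 in young homozygous and 8.10% ± 0.392 in young wild-type T cells. In old T cells Trbv12-2 held 6.50%, 3.87% and 5.81% in homozygous and 5.87%, 3.79% and 4.93% in wild-type libraries. Trbv12-1 held 5.54%, 2.88% and 4.31% in old homozygous and 4.13%, 1.87% and 3.15% in old wild-type libraries. The old genotypes overlapped for both, and the animal numbered 2 was lowest in each group. Within each number the homozygous library was above the wild-type library for both segments, an order that was not tested. Without the animals numbered 2 the old genotypes still overlapped for Trbv12-2 but not for Trbv12-1. Each old group then holds 2 libraries, and the share of all genes without overlap in them was not computed. A difference between the old genotypes cannot be read from this.

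Trbv30, the last plus-strand segment of the locus, was a low segment, read from 7 to 59 estimated fragments per T cell library. It held 0.162%, 0.260%, 0.190% and 0.290% in young homozygous and 0.456%, 0.402%, 0.603% and 0.313% in young wild-type T cells, without overlap. Its log2 fold change was -0.90 ± 0.30 in young animals and -0.83 ± 0.23 averaged over both ages, with limma adjusted p of 0.376 and 0.30. Neither passed. In old T cells it held 0.243% ± 0.124 in homozygous and 0.401% ± 0.130 in wild-type libraries (n = 3 each), with overlap.

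Trbv1, the segment farthest from the constant genes, held 7.65%, 7.21%, 7.08% and 7.31% in young homozygous and 6.996%, 5.34%, 6.81% and 6.13% in young wild-type T cells. Trbv16, the Vβ11 segment, held 5.96%, 6.81%, 6.30% and 6.64% in young homozygous and 7.996%, 7.17%, 7.25% and 7.98% in young wild-type T cells. Both were without overlap, with an unadjusted exact permutation p of 0.0286 each. In old T cells both overlapped. Trbv1 held 6.58% ± 1.02 in homozygous and 7.06% ± 1.17 in wild-type libraries, and Trbv16 held 7.53% ± 1.20 in homozygous and 7.08% ± 0.797 in wild-type libraries. In the limma interaction of age and genotype 0 of 94 segments passed, where 0% of all genes did, and 2 (2.13%) had an unadjusted p under 0.05, where 3.87% of all genes did.

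The library names of the young animals fall into 2 number series, with 2 libraries of each genotype in each. These 5 segments were picked as not overlapping, which fixes the sign within each series, so only the sizes are given. For Trbv12-2 homozygous libraries were 1.497 percentage points above wild type in the first series and 1.59 in the second. The differences were 0.868 and 1.27 points for Trbv12-1 and 1.26 and 0.724 points for Trbv1. They were -1.20 and -1.15 points for Trbv16 and -0.218 in both series for Trbv30.

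Some transcripts of other kinds were without overlap between the same young T cell libraries, though none passed the threshold. Cd8a, a chain of the CD8 co-receptor, stood at 103 to 141 FPKM in homozygous and 148 to 165 FPKM in wild-type libraries, with a limma adjusted p of 0.458. Its partner Cd8b1 stood at 259.8 to 353 FPKM in homozygous and 379 to 470 FPKM in wild-type libraries, with a limma adjusted p of 0.493, while Cd4 overlapped at 137 to 160.0 and 142 to 161 FPKM. B cell markers summed to 1128 to 1781 FPKM in homozygous and 2955 to 4038 FPKM in wild-type libraries, and plasma cell markers to 249 to 371.8 and 731 to 1215 FPKM. The part of these in the usage differences was not tested.

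**Figure D4:**
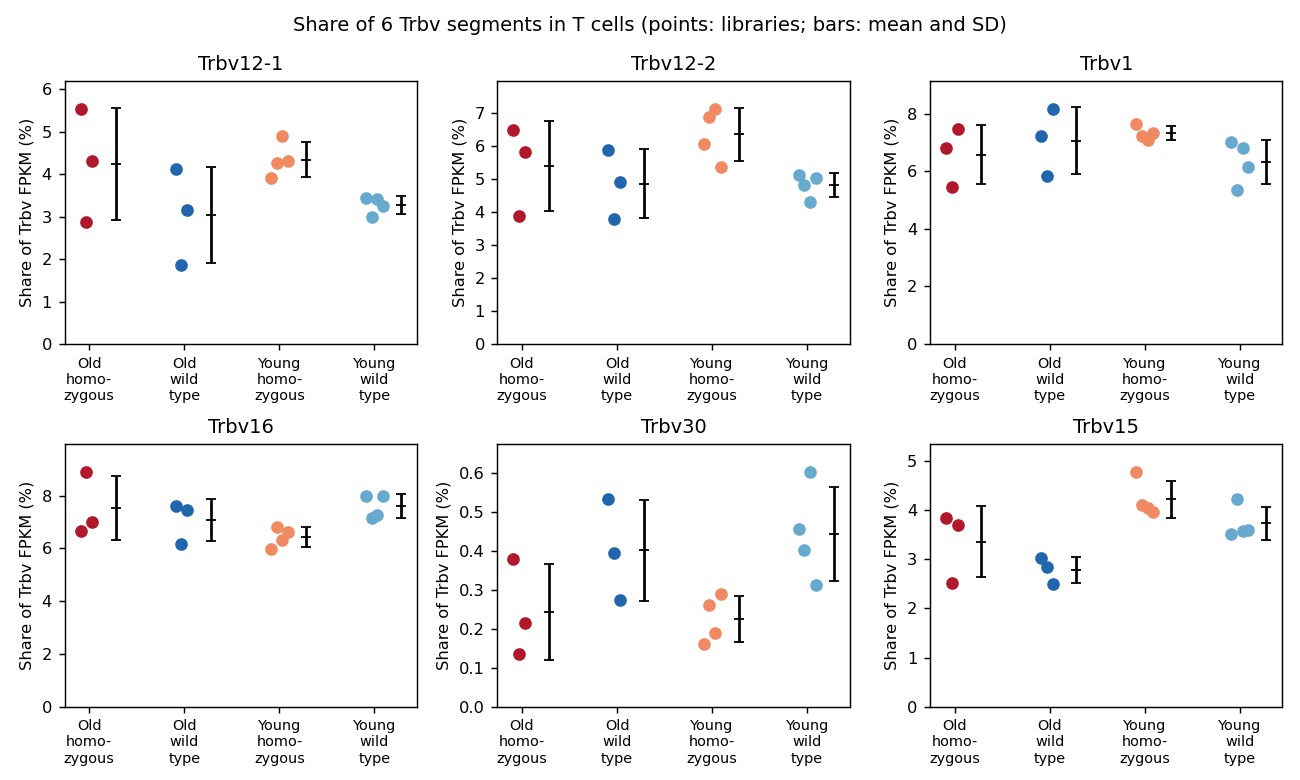
Share of Trbv FPKM (%) of 6 segments in T cells, with a point per library and bars for the mean and SD of each group. In young animals Trbv12-1, Trbv12-2 and Trbv1 lie higher and Trbv16 and Trbv30 lower in homozygous libraries without overlap, and Trbv15 lies lower in old than in young libraries of both genotypes.

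In old T cells no segment passed between genotypes. Of 94 segments 0 passed in limma, as did 0% of all genes, and 10 (10.6%) had an unadjusted p under 0.05 where 3.81% of all genes did. Averaged over both ages 0 of 94 segments passed, where 0.00758% of all genes did, and 8 (8.51%) had an unadjusted p under 0.05, where 8.13% did. On the deposited scale 6 of 94 segments (6.38%) were without overlap, where 7.7% of all genes were. All 6 were lower in homozygous libraries, where 4.26% of all genes were lower without overlap. They were Trbv17, Trbv20, Trav8d-1, Trav10d, Trav13-2 and Trav16d-dv11. Trbv17, the Vβ9 segment, had the smallest unadjusted p. It stood at 73.0, 76.2 and 90.1 FPKM in old homozygous and 113, 104 and 106 FPKM in old wild-type T cells, with a log2 fold change of -0.44 ± 0.14 and a limma adjusted p of 1. Without the animals numbered 2 the fold change was -0.43, with an adjusted p of 0.808. As a share it was 4.42%, 3.65% and 4.72% in old homozygous and 5.22%, 5.65% and 5.17% in old wild-type libraries. Trbv20, the Vβ15 segment, held 3.62% ± 0.323 in old homozygous and 4.41% ± 0.218 in old wild-type T cells, with an unadjusted exact permutation p of 0.1, the smallest that 3 against 3 libraries allow. Without the animals numbered 2 Trbv20 held 3.45% in old homozygous and 4.29% in old wild-type libraries. Both segments were named after their values were seen. As shares, 2 of 24 Trbv segments (8.33%) were without overlap, where 6.09% of all genes were, and 8 of 70 Trav segments (11.4%), where 4.31% were. Of the 8, Trav6-1, Trav6-2, Trav6-4 and Trav14d-3-dv8 were higher and Trav8d-1, Trav16d-dv11, Trav15-1-dv6-1 and Trav12-2 lower in old homozygous T cells. Trav12-2, the segment with the highest mean Trav share, held 5.596%, 3.79% and 5.44% in old homozygous and 10.03%, 5.75% and 5.94% in old wild-type libraries, with an unadjusted exact permutation p of 0.1. That is the smallest p that 3 libraries against 3 allow, and old wild-type replicate 1 was above the other 5.

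Several Trav segments were high in a single old T cell library. Trav13-2 held 7.15% of Trav FPKM in old wild-type replicate 2, read from 213 estimated fragments, against a median of 1.13% and a next highest value of 1.57% over the 14 T cell libraries. Trav16d-dv11, one of the segments that can also be used in δ chains, held 2.92% in the same library, read from 71 fragments, against a median of 0.803%. Trav8d-2 held 7.01% in old homozygous replicate 2, read from 192 fragments, against a median of 1.97%. These 3 were the segments that held at least 2% in a library and at least 3 times their median. Another 6 segments held at least 2% and 2 to 3 times their median in a library, all 6 in old libraries and 4 of them in those numbered 2. They were Trav3-1, Trav6n-6, Trav4-4-dv10, Trav4-3, Trav1 and Trbv19. Of these, Trav1 and Trbv19 are described because MAIT cells use them, a choice made after the values were seen. Trav1, the MAIT segment, held 2.99% in old homozygous replicate 2 against a median of 1.27%. Trbv19, the Vβ6 segment, which MAIT cells also use, held 8.78% in old wild-type replicate 2 against a median of 4.32%. The highs were thus in different animals. Trav1 held 1.25% in old wild-type replicate 2, and Trbv19 held 5.57% in old homozygous replicate 2. The part of MAIT cells in either was not tested. The 10.03% of Trav12-2 in old wild-type replicate 1 stood against a median of 5.39%. In that library Cd8b1 was at 554.5 FPKM, the highest of the 14. Any link of Cd8b1 to the Trav12-2 share was not tested. No young library held a segment past the limit.

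The 3 segments past the limit were high in the T cell libraries of the old animals numbered 2, which also had the most immunoglobulin transcripts. The part of the one in the other was not tested. The non-BT library of the same number and genotype gave a second, shallower reading. Trav13-2 held 1.62% of Trav FPKM there and Trav16d-dv11 0.670%, against a median of 0% over the other non-BT libraries for each, while Trav8d-2 was at 0 FPKM. Trbv19 held 4.66% against a median of 2.48%, and 3 of the 14 non-BT libraries held more. For each of these 4 segments at least 1 other non-BT library held a higher share.

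**Figure D5:**
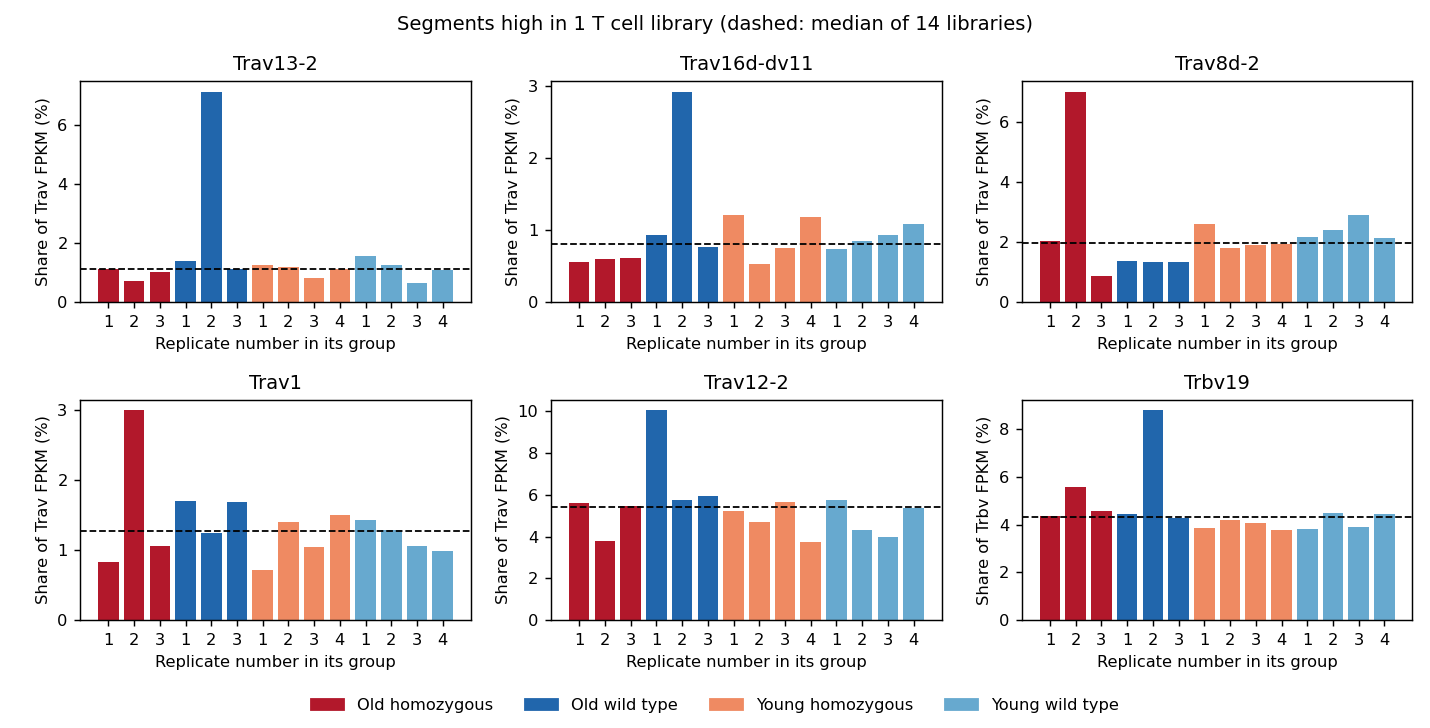
Share (%) of 6 segments in each of the 14 T cell libraries, with bars coloured by group and a dashed line at the median. Trav13-2 reaches 7.15% and Trav16d-dv11 2.92% in old wild-type replicate 2, Trav8d-2 reaches 7.01% in old homozygous replicate 2, and young libraries stay near the median.

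Old and young T cells were then compared within each genotype. In homozygous animals 1 of 94 segments passed, Trbv15, which fell, where 1.14% of all 13193 genes passed. Trbv15 is the Vβ12 segment. It stood at 63.4, 52.6 and 70.6 FPKM in old homozygous T cells, against 95.1, 87.7, 88.4 and 103.9 FPKM in young homozygous T cells. The old libraries all lay below the young ones. The log2 fold change was -0.59 ± 0.12, with a limma adjusted p of 0.0347. In wild-type animals Trbv15 stood at 65.6, 52.5 and 51.4 FPKM in old and 79.8, 87.6, 95.5 and 83.5 FPKM in young T cells, also without overlap. The log2 fold change was -0.61 ± 0.12 and the limma adjusted p 0.0697, so that 0 of 94 segments passed, where 0.227% of all genes did. The share of all genes without overlap between ages was not computed in either genotype. At an unadjusted p under 0.05 there were 13 segments (13.8%) in homozygous animals, where 14.8% of all genes were, and 12 (12.8%) in wild-type animals, where 10.6% were. Of 7 leave-one-out fits in wild-type animals 1 passed, that without old wild-type replicate 1 (-0.72, adjusted p = 0.0231), and the other 6 did not, with adjusted p up to 0.287. Without the old animals numbered 2 the wild-type value was -0.56, with an adjusted p of 0.149.

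The Trbv segments as a group lay lower in the same contrasts. Their median log2 fold change was -0.27 in homozygous and -0.22 in wild-type animals, against -0.02 and -0.01 over all genes. As shares of Trbv FPKM, Trbv15 held 3.36% ± 0.724 in old homozygous and 4.22% ± 0.379 in young homozygous T cells, and 2.79% ± 0.263 in old wild-type and 3.73% ± 0.336 in young wild-type T cells. Old and young libraries did not overlap in either genotype, and here too the share of all genes without overlap was not computed. With libraries scaled to equal Trbv sums the log2 fold change was -0.35 in homozygous and -0.41 in wild-type animals, with limma adjusted p of 0.245 and 0.261. Without the old animals numbered 2 it was -0.48 in homozygous animals on the deposited scale (adjusted p = 0.160). Of 7 leave-one-out fits in homozygous animals, the call was kept in that without old homozygous replicate 3 and lost in the other 6, with values from -0.69 to -0.48. The immunoglobulin share of the same libraries was 11.8% to 41.9% in old homozygous and 1.11% to 2.38% in young homozygous T cells. Its part in the fall was not tested.

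Mouse strains that display the class II molecule I-E together with endogenous retroviral superantigens delete T cells that use Vβ5, Vβ11 or Vβ12. Here the segments of these families, Trbv12-1, Trbv12-2, Trbv16 and Trbv15, were each at 1.87% or more of Trbv FPKM in every T cell library. Trbv12-3, once named Vβ5.3, is annotated as a pseudogene and was at 0 in all 14. H2-Ea-ps, the I-E α chain gene as annotated, was at 1.04 FPKM or less in all 14 B cell libraries.

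Other genes of the pathway were taken as 3 lists. The 7 genes of the αβ receptor complex, 5 genes of the γδ receptor and the 10 tested of 12 recombination and end joining genes had 0 members past the threshold in T cells between genotypes at either age, where 0% of all genes passed. The γδ list was positive for 5 of 5 genes in young T cells, with a median log2 fold change of 0.52 against 0.00 over all genes. In old T cells 4 of 5 were positive, with a median of 0.30 against -0.01. Averaged over both ages 5 of 5 were positive, with a median of 0.38 against -0.01. The share of all genes that were positive was not computed. Trdc, the δ constant gene, fell with age in homozygous T cells, the only list member called there, where 0.144% of all genes fell. It stood at 7.73, 6.10 and 12.1 FPKM in old homozygous, against 16.3, 15.4, 15.5 and 17.7 FPKM in young homozygous T cells, with a log2 fold change of -0.88 ± 0.18 and a limma adjusted p of 0.0344. Without the old animals numbered 2 it was -0.68, with an adjusted p of 0.161. Rag1, whose product cuts DNA for recombination, was at 0.0270 FPKM or less in every T cell library.

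In non-BT cells segment levels differed widely between libraries. Summed Trbv stood at 121, 440.2 and 13.9 FPKM in old homozygous and 73.6, 188 and 147 FPKM in old wild-type libraries. It stood at 11.6, 11.3, 12.2 and 43.4 FPKM in young homozygous and 15.8, 35.0, 46.6 and 81.4 FPKM in young wild-type libraries. The genotypes overlapped at both ages. T cell markers in these libraries summed to 129.5 to 747.7, 303 to 371.3, 147 to 242 and 290.2 to 354 FPKM in the same 4 groups, and the part of T cells in the non-BT fraction was not tested. Of 52 segments tested in young non-BT cells 0 passed, where 1.69% of 13587 genes did, and 2 (3.85%) had an unadjusted p under 0.05, where 13.9% of all genes did. In old non-BT cells 0 of 52 passed, where 0% of all genes did, with 1 (1.92%) at an unadjusted p under 0.05, where 5.78% of all genes were. Dntt, whose product adds untemplated bases at the joints of variable segments, was the only member of the 3 lists called, where 1.46% of all genes fell. It fell in young non-BT cells to 2.92, 2.87, 2.02 and 1.90 FPKM in homozygous libraries, against 7.55, 11.5, 8.91 and 10.2 FPKM in wild-type libraries. The log2 fold change was -1.62 ± 0.32, with a limma adjusted p of 0.0253. Markers of plasmacytoid dendritic cells, Siglech, Klk1 and Ccr9, summed to 33.7 to 56.9 FPKM in the same homozygous libraries and 228 to 252 FPKM in the wild-type libraries. Their part in the fall of Dntt was not tested.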

How the data were processed

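The authors deposited 1 FPKM value per gene and library, per the file headers. HISAT2 2.1.0, Cufflinks 2.2.1 and Cuffdiff are named with build GRCm38.p4, per the submitters' processing notes. How reads of several genes were shared is not given in the sources used here. The protocol in the labels (SMART-Seq HT and Nextera XT) marks no strand and no molecules.

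Symbols came from GENCODE M21 by Ensembl identifier (47219 of 47719 genes). Each cell type was fitted by itself in limma 3.58.1 (R 4.3.3, variance trend on) after adding 1 to FPKM and taking log2. A gene entered if 3 or more of the 14 libraries had 1 FPKM or above. All 4 groups shared 1 estimate of spread, p-values were adjusted by Benjamini-Hochberg across every gene fitted, and the threshold was 0.05. The procedure was tested on simulated data. Shares are percentages of summed Trav or Trbv FPKM, compared by two-sided exact permutation tests without adjustment (SciPy 1.17.1).

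Library depth was worked out from the spacing of low values, which are multiples of 1 fragment, in 5671 genes with only 1 annotated transcript, 1500 bases or longer. The shallowest of the 42 libraries held 9480000 fragments, the deepest 25800000 and the median library 19310000. A step was found for 70 segments, for 66 of them within 10 bases of a transcript length shortened by 187 bases. All 620 of their values under 8 fragments were within 0.1 of a whole number. The step of each segment was chosen to make these values whole, so their closeness to whole numbers does not check the estimates. Fragments are PCR products and give no counting interval.

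The text names the 8 Trav and 8 Trbv genes with the highest mean, any segment past the threshold, those high in 1 library, Trav1, Trav11, Trav11d, Trbv31, the Trbv13 family and the constant genes. Members and lists were chosen with earlier results of these data known. Same-numbered T cell libraries were not taken as pairs in the main fits, and the labels do not say what a shared number means. Their deviations from the group means correlated at 0.10, 0.21 and 0.13 in old and at -0.01, 0.03, 0.15 and 0.06 in young animals. In non-BT libraries the values were 0.04, 0.20 and 0.19 in old and 0.13, 0.12, -0.03 and 0.15 in young animals. In B cell libraries they were 0.19, 0.29 and 0.19 in old and 0.06, -0.05, -0.01 and 0.16 in young animals. These values do not settle whether the numbers pair the animals.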

Additional observations from a re-analysis of the deposited data

Results flagged for a closer look

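In groups of 4 young libraries, 73 sets of values were examined for a highest or lowest value far from the rest, and chance would give about 1 in 20. In T cells of young homozygous animals the share of Trav5-4 in replicate 4 (5.64%), of Trbv15 in replicate 1 (4.78%) and of Trav8d-2 in replicate 1 (2.58%) stood above the other 3 libraries. In young wild-type T cells the share of Trbv15 in replicate 2 (4.23%) stood above and that of Trav13-1 in replicate 4 (2.83%) below the others. Trbc2 was high in young homozygous T cell replicate 4 at 2452 FPKM. In young homozygous non-BT cells replicate 4 stood apart for summed Trav (29.6 FPKM), summed Trbv (43.4 FPKM) and Trac (37.3 FPKM).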

How the results depend on the processing

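Counts of called segments were equal or kept within 1.5 times in 121 of 135 alternatives. The main count was 0 in every contrast but homozygous old minus young T cells, where it was 1. Most of the 121 are therefore 0 against 0, an absence of calls. Among genotype contrasts in T cells the count was 0 in every alternative run. In homozygous animals between ages the count of 1 became 0 without the filter on low values, with libraries scaled to equal Trav or Trbv sums, with only the groups compared and without the old animals numbered 2, and leave-one-out fits gave 0 to 1. In wild-type animals between ages the count of 0 became 1 with quantile normalization and 3 with array quality weights, and leave-one-out fits gave 0 to 2. In old non-BT cells it became 1 without the filter. The causes were not tested beyond the fewer samples or the larger number of genes tested that each alternative has by construction.

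Trbv15 was past the threshold in 4 of 14 alternatives in homozygous (adjusted p of 0.0150 to 0.245) and 3 of 14 in wild-type animals (0.00628 to 0.287). Trdc passed in 4 of 13 (0.00370 to 0.191) and Dntt in 5 of 13 (0.0283 to 0.0854). Trbv30 passed in 0 of 16 in young animals. No followed value changed sign. Estimated fragments in place of FPKM moved the mean share by over 1 SD in 57 of 112 segment and group pairs, as segments differ in length. Leaving out 1 library did so in 0 of 392 cases, which was fixed in advance. In a group of 3 or 4 libraries it cannot move a mean by over 1 SD, so stability cannot be read from it. Fits with the replicate number as a block, which the main fits left out, called 0 segments in each of the 6 genotype contrasts. Each homozygous T cell library correlated best with the wild-type library of its own number, except young number 1. In old animals the same held in every non-BT and B cell library. In young animals it failed for number 3 in non-BT cells and for numbers 1, 2 and 3 in B cells. The alternatives on fragments, on left-out libraries of a share and on the animals numbered 2 (fits, spread and overlap) were chosen after seeing the data. FPKM is a share of a library, so a segment's deposited level moves with other abundant transcripts. Segments under about 20 fragments, such as Trbv30, are limited by depth.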
